A study of Mus musculus with 7 samples.

Results

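The axoneme is the motile core of the sperm tail, and its dynein, radial spoke and cilia- and flagella-associated (Cfap) genes were compared between testes of Phf13 knockout and wild type mice. Members were all genes whose symbol starts with Cfap, Dnah, Dnaic, Dnai, Dnal, Dnaaf, Rsph or Drc, leaving out the Dnaj chaperones. This gave 53 of the 18194 genes tested, and all 53 entered the fit, with no filter on low signals. The samples were 3 whole testis arrays of Phf13 knockout mice and 4 of wild type mice, 15 to 20 weeks old. The product of Phf13 is a chromatin reader of methylated lysine 4 on histone H3. The labels name no strain and no deleted exon. Separate animals are not stated for the arrays, and p-values therefore cover array-to-array spread that may be technical.

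Values are the authors' log2 signals from Affymetrix arrays, and array medians lay between 5.01 and 5.08. The targeted gene fitted the labels: Phf13 had signals of 6.04, 5.83 and 5.71 in knockout arrays, against 8.66, 8.64, 8.73 and 8.54 in wild type arrays. The fitted difference was −2.78 on the log2 scale (SE 0.09), and an exact two-sided permutation test gave p = 0.0286, its minimum with 35 possible divisions. Where this probe set lies relative to the deleted portion was not analysed here. The tissue was testis with late germ cells, since all 12 measured markers of elongating spermatids and all 10 of round spermatids were brighter than the median tested gene. In this bulk tissue, fewer cells of a type and less RNA per cell cannot be told apart.

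In an axoneme, doublet microtubules surround a central pair. Outer and inner dynein arms on each doublet walk along the neighbouring one, and radial spokes and the nexin-dynein regulatory complex turn that sliding into a bend. Dynein arms are put together in the cytoplasm by assembly factors before they enter the tail. In testis most of these genes are transcribed in spermatocytes and spermatids, and the same gene families build motile cilia of airway, brain and oviduct.

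Axoneme genes were lower in knockout testis by small amounts. Of the 53, 23 fell, 0 rose and 30 did not pass the threshold (limma, Benjamini-Hochberg adjusted p under 0.05 over all genes). Without adjustment, 39 lower and 1 higher had a limma p under 0.05, against 3347 lower and 2799 higher of all 18194 genes. After adjustment, 7.05% of all tested genes fell and 9.07% rose, 16.1% in all. The 23 that fell had signals 15.5% to 30.2% lower in knockout, with adjusted p from 0.0121 to 0.0399. Over all 53 genes the median log2 fold change was −0.25, against −0.045 over all tested genes, and 50 were negative, against 59.9% of all genes. Every knockout array lay below every wild type array for 35 of the 53 genes, against 15.2% of all genes, and for 0 of them did the knockout arrays all lie above, against 12.8%. Bright genes fell more often than dim ones on these arrays. Of the 53, 47 belonged to the brighter 9099 tested genes, and 23 of the 47 fell, 35 did not overlap and 45 were negative. Over the 9099 genes, 11.9% fell, 24.2% had all knockout arrays below all wild type arrays, 60.1% were negative and the median was −0.07. At an unadjusted limma p under 0.05, 2546 of the 9099 were lower and 1852 higher, against 38 lower and 1 higher of the 47.

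The count moved with single arrays and the median moved little. With 1 array left out, 4 axoneme genes fell without knockout 1 and 0 without knockout 3, where 1.42% and 0.434% of all genes fell. Leaving out wild type 1, 2 or 3 gave 2, 5 and 14, where 1.14%, 2.23% and 5.77% of all genes fell. The runs without knockout 2 or wild type 4 gave 24 and 20 (6.65% and 4.47% of all genes). In the run without knockout 3, 35 of the 53 had an unadjusted limma p under 0.05. All genes were not counted at that unadjusted p in this run, so no share stands beside the 35. Over the 7 runs with 1 array left out the median of the 53 stayed between −0.28 and −0.22. Within the 3 groups of arrays that share the start of their title number, which may mark a batch, the median was −0.31, −0.21 and −0.24. With these groups as a block in limma 17 genes fell, 15 of them among the 23, and 5.03% of all genes fell. All 23 genes that fell were lower in knockout in each of these groups, a sign that arrays without overlap fix in advance.

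**Figure D1:**
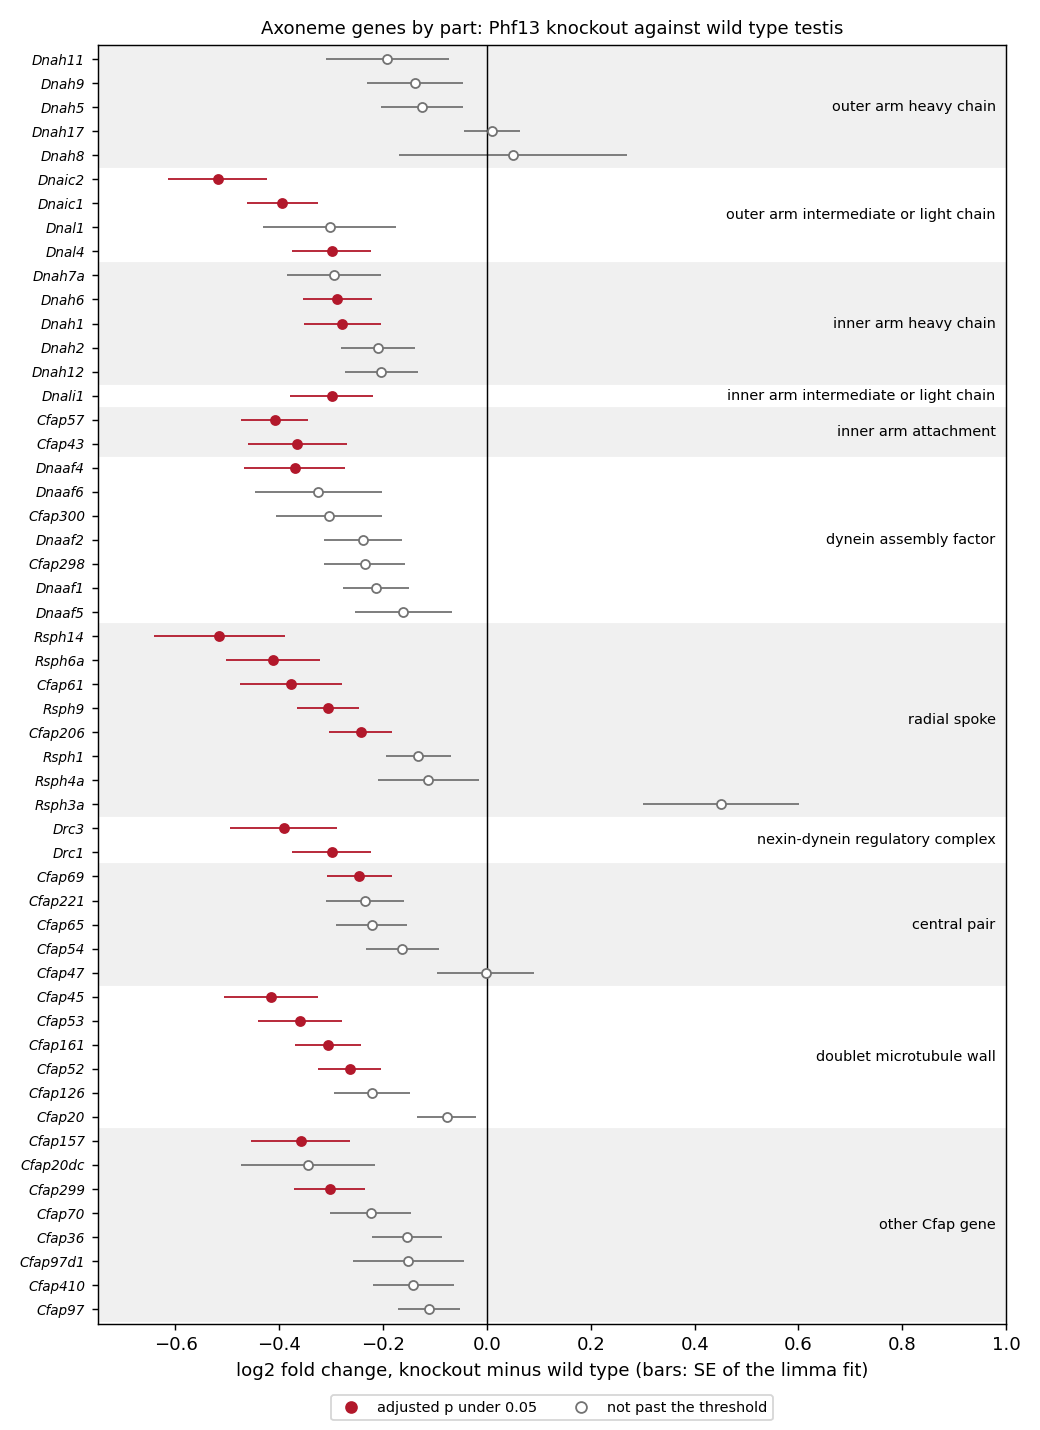
Log2 fold change (knockout minus wild type) with the standard error of the limma fit for the 53 axoneme genes, arranged by the part of the axoneme they build, with filled points for genes past the threshold. The 23 filled points all lie between −0.52 and −0.24, and Rsph3a at 0.45 is the one point well to the right of 0.

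The promoters of these genes are shown because factors of the RFX family, which bind the X-box, are known regulators of ciliary genes. RefSeq promoters (GRCm38.p6, 250 bases before to 50 after a gene's start) were matched by symbol for 44 of the 53. The X-box core GTTGCC, searched on both strands (GGCAAC on the other), was found for 12 of the 44 genes or 27.3%, against 14.7% of the 14453 tested genes with a promoter. Of the 12, 4 belong to the 20 matched genes that fell and 8 to the 24 that did not pass. A full pair of cores, GTTNCC and GGNAAC with at most 3 bases between them, was in 3 of the 44 (6.82%), against 1.07% of the tested genes, and none of the 3 fell. A match of letters is a description and not a bound site. The first 3 sequences below are from genes that fell and the next 2 hold a full pair; capitals mark the cores, and each is read 5′ to 3′ on the gene's strand.
Cfap161, chr7:83794843-83794935, minus strand: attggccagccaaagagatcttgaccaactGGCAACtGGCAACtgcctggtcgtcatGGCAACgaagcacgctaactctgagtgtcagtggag
Dnaic2, chr11:114727363-114727418, plus strand: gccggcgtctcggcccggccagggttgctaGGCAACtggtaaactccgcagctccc
Drc1, chr5:30281352-30281392, plus strand: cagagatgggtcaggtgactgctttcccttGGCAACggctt
Cfap298, chr16:90934874-90934948, minus strand: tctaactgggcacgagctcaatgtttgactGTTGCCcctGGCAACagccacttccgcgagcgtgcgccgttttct
Cfap20dc, chr14:8666349-8666422, minus strand: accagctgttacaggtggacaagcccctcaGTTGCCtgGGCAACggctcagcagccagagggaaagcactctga

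Outer dynein arms, which supply most of the power of the beat, showed falls in their smaller chains and none in their motor chains. Of 4 intermediate and light chain genes 3 fell. The intermediate chain gene Dnaic2 (also known as Dnai2) had signals of 7.97, 7.98 and 7.65 in knockout, against 8.47, 8.42, 8.27 and 8.38 in wild type. The groups did not overlap, and knockout 3 was the lowest. Its log2 fold change of −0.52 (SE 0.10, limma adjusted p = 0.0149) was the largest fall of the 53 genes, a signal 1.43-fold lower. A second, dimmer Dnaic2 probe set (mean 4.88) had −0.14 (limma adjusted p = 0.369 over all probe sets). Dnaic1, which encodes the other intermediate chain, had 8.23, 8.30 and 8.26 in knockout, against 8.72, 8.70, 8.69 and 8.52 in wild type (log2 fold change −0.39, SE 0.07, limma adjusted p = 0.0134). The knockout arrays lay close together, and wild type 4 was the lowest of its group. Dnal4, a light chain gene, fell by 0.30 on the log2 scale. Dnal1, the light chain that binds the heavy chain motor domain, had −0.30 (SE 0.13, limma adjusted p = 0.138), with overlapping groups.

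None of the 5 outer arm heavy chain genes passed the threshold, and none had an unadjusted p under 0.05 in limma. Sperm use the heavy chains encoded by Dnah8 and Dnah17, whereas Dnah5, Dnah9 and Dnah11 are best known from motile cilia of other tissues. Dnah8 had signals of 11.77, 10.86 and 11.55 in knockout, against 11.50, 10.98, 11.57 and 11.32 in wild type. The groups overlapped fully, and knockout 2 and wild type 2 were both low. Its log2 fold change was 0.05 with a standard error of 0.22, the widest of the 53 genes, so a change of the size seen in the other chains was not detectable here. Within the title-number groups its difference was 0.27, −0.41 and 0.23.

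The Dnah17 probe set was listed between 3.54 and 3.61 in knockout and at 3.56 in all 4 wild type arrays. That signal stood at percentile 12.7 of the tested genes and was not shown to lie above background. Dnah5 (percentile 32.4) and Dnah11 (42.7) were dim as well, and Dnah9 stood at 57.9. Their log2 fold changes were −0.13 for Dnah5, −0.19 for Dnah11 and −0.14 for Dnah9.

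**Figure D2:**
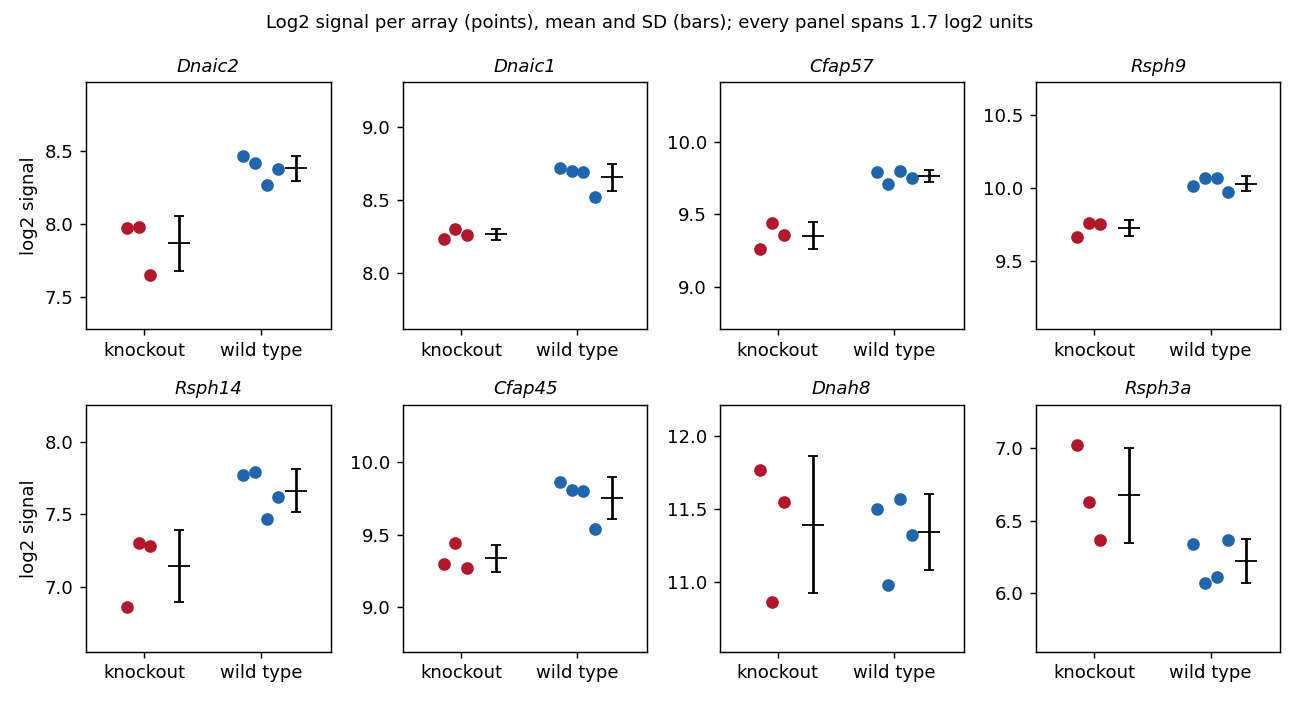
Log2 signal in each array (points) with the mean and SD (bars), knockout left and wild type right, for 6 axoneme genes that fell and for Dnah8 and Rsph3a, which did not pass. In the first 6 panels no knockout point reaches the lowest wild type point, while the groups overlap for Dnah8 and meet at 6.37 for Rsph3a.

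Inner dynein arms, which shape the bend, had negative fold changes for all 8 of their genes among the 53, and 5 of these fell. Among the heavy chains, Dnah6 had 7.78, 7.80 and 7.87 in knockout, against 8.18, 8.17, 8.04 and 8.03 in wild type (log2 fold change −0.29, SE 0.07, limma adjusted p = 0.0254). The groups lay 0.16 apart at their nearest arrays. Dnah1, whose loss in mice and humans gives short or irregular sperm tails, had 7.92, 8.03 and 8.01 in knockout, against 8.29, 8.40, 8.22 and 8.15 in wild type, and fell by 0.28 on the log2 scale. Dnah7a (−0.29), Dnah2 (−0.21) and Dnah12 (−0.20) had limma adjusted p-values from 0.0588 to 0.0842 and did not pass. The light chain gene Dnali1 fell by 0.30. With the title-number block, Dnah6 (limma adjusted p = 0.0521), Dnah1 (0.0724) and Dnali1 (0.0582) no longer passed, and Dnah7a did (0.0461).

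The 2 genes among the 53 that anchor or regulate inner arms both fell. Cfap57 had 9.26, 9.44 and 9.36 in knockout, against 9.79, 9.71, 9.80 and 9.75 in wild type. Its log2 fold change of −0.41 (SE 0.06, limma adjusted p = 0.0121) had the smallest p of the 53 genes. A second, dimmer Cfap57 probe set (mean 5.56) had 0.055 (limma adjusted p = 0.546 over all probe sets). Cfap57 and Dnaic1 were each called in 6 of the 7 fits that drop an array, the most of the 23 genes that fell. Cfap69 was called in 0 of these fits, Dnaaf4, Dnah1 and Drc3 in 1, and the other genes that fell in 2 to 5. Cfap43, part of the tether that holds an inner arm motor to its doublet, had 9.37, 9.68 and 9.33 in knockout, against 9.89, 9.87, 9.83 and 9.71 in wild type, and fell by 0.37. Knockout 2 came within 0.03 of the lowest wild type array for Cfap43. A second, dimmer Cfap43 probe set gave −0.41 and another gave −0.03 with a standard error of 0.21.

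Dynein assembly factors, which fold and join the arms before transport, had 7 genes with negative fold changes, of which 1 fell. Dnaaf4 had 7.92, 8.30 and 8.20 in knockout, against 8.41, 8.56, 8.48 and 8.59 in wild type (log2 fold change −0.37, SE 0.10, limma adjusted p = 0.0372). Knockout 1 was the lowest of its arrays. Without overlap between groups but short of the threshold were Dnaaf1 (−0.21, limma adjusted p = 0.0527), Dnaaf2 (−0.24), Cfap298 (−0.24), Cfap300 (−0.31) and Dnaaf6 (−0.33). The second Dnaaf1 probe set, with a lower signal, had a log2 fold change of −0.47 (limma adjusted p = 0.0146 over all probe sets). Dnaaf5 was at −0.16 with overlapping groups.

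Radial spokes, the T-shaped links from doublet to central pair, held 5 genes that fell and the largest positive value. Rsph9, a spoke head gene, had 9.66, 9.76 and 9.75 in knockout, against 10.01, 10.07, 10.07 and 9.97 in wild type (log2 fold change −0.31, SE 0.06, limma adjusted p = 0.0173). The nearest arrays of the groups were 0.21 apart. Rsph14 had 6.86, 7.30 and 7.28 in knockout, against 7.77, 7.79, 7.47 and 7.62 in wild type, and fell by 0.52 (SE 0.13, limma adjusted p = 0.0303). Knockout 1 was far lower than the other knockout arrays, and without it the Rsph14 log2 fold change was −0.37. With the title-number block its limma adjusted p was 0.0582.

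Rsph6a and Rsph4a are paralogues of the spoke head, Rsph6a used in the sperm tail and Rsph4a in motile cilia. Rsph6a had 9.14, 9.13 and 8.83 in knockout, against 9.50, 9.49, 9.46 and 9.33 in wild type, a fall of −0.41 in log2 (SE 0.09, limma adjusted p = 0.0233). Rsph4a stayed between 2.48 and 2.75 in knockout and between 2.59 and 2.92 in wild type, near the bottom of the tested genes (percentile 4.20), and was not shown to lie above background. Cfap61, of the spoke base complex, fell by 0.38, and Cfap206, which docks a spoke to the doublet, fell by 0.24 (limma adjusted p = 0.0581 with the title-number block). Rsph1, the brightest of the 53 at 12.13 to 12.27 in knockout and 12.27 to 12.37 in wild type, had −0.13 (limma adjusted p = 0.176), and its groups met at 12.27.

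Rsph3a, a spoke stalk gene, went the other way without passing the threshold. It had 7.02, 6.63 and 6.37 in knockout, against 6.34, 6.07, 6.11 and 6.37 in wild type. Knockout 1 was the highest, and knockout 3 equalled wild type 4. This gave 0.45 in log2 (SE 0.15, limma adjusted p = 0.0745). Title-number groups taken singly gave 0.68, 0.54 and 0.00. A second Rsph3a probe set, dim at a mean of 4.17, had 0.03.

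The nexin-dynein regulatory complex, which links neighbouring doublets, had 2 genes among the 53, and both fell. Genes of this complex under other names are counted below, where 4 of 10 regulatory complex and ruler genes fell. Drc1 had 9.13, 9.32 and 9.16 in knockout, against 9.61, 9.46, 9.54 and 9.40 in wild type (log2 fold change −0.30, SE 0.08, limma adjusted p = 0.0347). Drc3 had 8.59, 8.86 and 8.90 in knockout, against 9.18, 9.14, 9.02 and 9.36 in wild type, and fell by 0.39 on the log2 scale. The groups of both genes were apart, by 0.08 for Drc1 and 0.12 for Drc3 at the nearest arrays. With the title-number block Drc1 no longer passed (limma adjusted p = 0.0599), while Drc3 did (0.0378).

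Doublet wall proteins sit inside or along the microtubules and brace them against the beat. Of 6 genes 4 fell. Cfap45 had 9.30, 9.44 and 9.27 in knockout, against 9.86, 9.81, 9.80 and 9.54 in wild type (log2 fold change −0.42, SE 0.09, limma adjusted p = 0.0221), and wild type 4 was the wild type array nearest to the knockout. Cfap52, its partner inside the doublet, had 9.69, 9.82 and 9.84 in knockout, against 10.03, 10.07, 10.03 and 10.06 in wild type, and fell by 0.26. Cfap161 fell by 0.31 and Cfap53 by 0.36. Cfap126 (−0.22, limma adjusted p = 0.0742) and Cfap20 (−0.08, limma adjusted p = 0.365), which also serves the centriole and primary cilia, did not pass.

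Of 5 central pair genes 1 fell, and the median log2 fold change was −0.22. Cfap69 had 10.37, 10.41 and 10.41 in knockout, against 10.55, 10.69, 10.61 and 10.72 in wild type, a difference of −0.25 in log2 (SE 0.06, limma adjusted p = 0.0352). Its other probe sets had log2 fold changes of −0.26 and −0.44, both past the threshold over all probe sets. With the title-number block the limma adjusted p of Cfap69 was 0.0555, and it passed in 0 of the 7 fits that drop an array. Cfap65 (−0.22) and Cfap221 (−0.23) had no overlap between groups and did not pass. Cfap54 was at −0.16, and the X-linked Cfap47, at percentile 0.72, was the dimmest of the 53.

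The remaining 8 Cfap genes are less often tied to one axoneme structure, and 2 of them fell. Cfap299 had 9.19, 9.34 and 9.27 in knockout, against 9.52, 9.56, 9.52 and 9.68 in wild type, a difference of −0.30 in log2 (SE 0.07, limma adjusted p = 0.0241). Cfap157, a basal body gene needed for sperm tail shape in mice, fell by 0.36 (limma adjusted p = 0.0532 with the title-number block). Cfap70 (−0.22), Cfap20dc (−0.35, dim), Cfap36 (−0.15), Cfap97d1 (−0.15), Cfap410 (−0.14) and Cfap97 (−0.11) did not pass. Of the 3 Cfap97 probe sets the brightest was used, and the dimmest had −0.37 (limma adjusted p = 0.0314 over all probe sets).

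**Figure D3:**
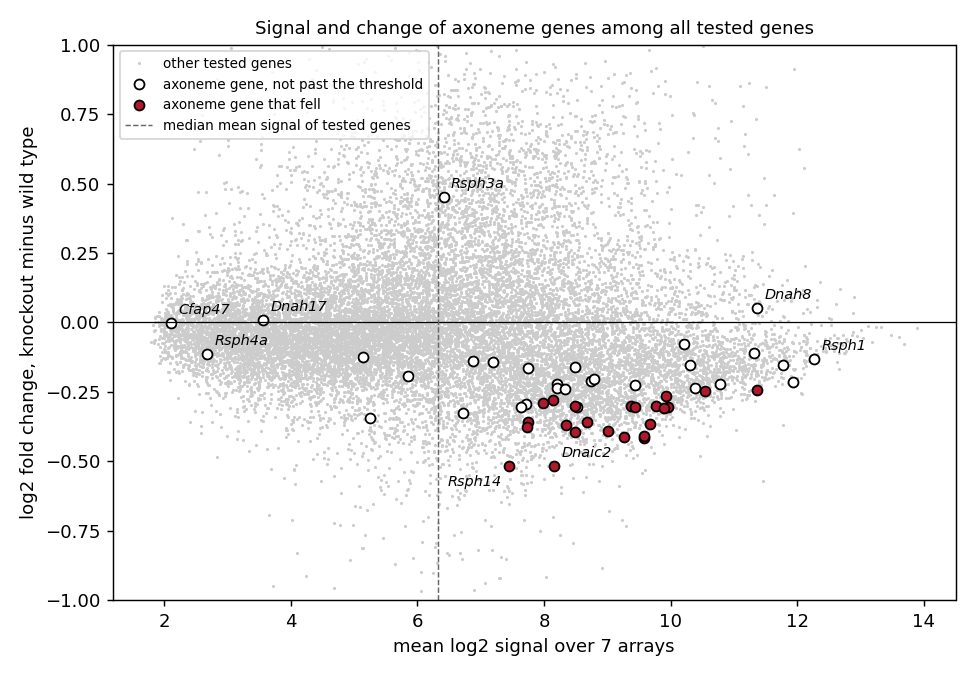
Mean log2 signal over 7 arrays against log2 fold change (knockout minus wild type) for all tested genes (grey) and the 53 axoneme genes (circles, filled where they fell); 85 genes beyond 1 log2 unit are off the axis. The filled circles lie right of the median signal (dashed line) and below 0, and Cfap47, Rsph4a and Dnah17 lie at the dim left edge.

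Axoneme genes whose names follow no such prefix were also lower. Of 50 measured, 21 fell, 0 rose and 29 did not pass (limma; 38 lower and 0 higher at an unadjusted p under 0.05), with a median log2 fold change of −0.29 and none positive. Over all 18194 tested genes, 1283 fell, and 3347 were lower and 2799 higher at that unadjusted p. Of the 50, 49 belonged to the brighter 9099 tested genes, of which 11.9% fell. Among outer arm docking genes 5 of 7 fell, including Ccdc63 (−0.36) and Ccdc151 (−0.40). Of 11 genes listed under the central pair 5 fell, including Ak7 (−0.35) and Spag16 (−0.37). The 11 include Klhl10 (−0.21), which did not pass and whose place in the axoneme is not established. Of 10 regulatory complex and ruler genes 4 fell, including Iqcd (−0.47) and the ruler gene Ccdc40 (−0.42). Of 12 spoke and inner arm genes 6 fell, including the spoke gene Lrrc23 (−0.48, SE 0.07, limma adjusted p = 0.0120). Of 10 assembly genes 1 fell, Zmynd10 (−0.41), although its knockout 2 (10.62) lay above its wild type 4 (10.59).

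Of 15 measured transcription regulators tied to cilia or spermatid genes, 3 fell and 0 rose (limma; 8 lower and 1 higher at an unadjusted p under 0.05). The counts for all 18194 tested genes were 1283 fallen, and 3347 lower and 2799 higher without adjustment. Of the 15, 11 belonged to the brighter 9099 tested genes, of which 11.9% fell. Rfx3, an X-box factor of ciliated cells, had 7.14, 7.54 and 7.27 in knockout, against 7.99, 7.94, 7.69 and 7.85 in wild type (log2 fold change −0.55, SE 0.11, limma adjusted p = 0.0179). The groups were apart. Sox30 fell by 0.37 and Crem, which is also among the spermatid markers below, by 0.26. Foxj1, the master regulator of motile cilia, had 7.27, 7.14 and 6.84 in knockout, against 7.64, 7.56, 7.35 and 7.11 in wild type, which overlapped (−0.33, SE 0.15, limma adjusted p = 0.148). Rfx2, needed for spermatid tails in mice, had −0.26 (limma adjusted p = 0.0913).

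Markers of other cells moved with genotype, and their part in the axoneme values was not tested. Of 11 Sertoli cell markers 9 rose, and their summed linear signal was 14918 to 16247 in knockout, against 8955 to 11329 in wild type. Of 8 Leydig cell markers 6 rose (sum 8174 to 10297 in knockout, 4270 to 6187 in wild type), and of 9 macrophage markers 6 rose (sum 1292 to 2066 in knockout, 905 to 1182 in wild type). Of 7 peritubular myoid markers 3 rose, with sums of 2232 to 2511 in knockout and 1384 to 1663 in wild type. The summed signal of the 53 axoneme genes was 39325 to 40712 in knockout, against 45158 to 46633 in wild type.

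Germ cell markers had small negative medians in the later stages. Of 12 pachytene spermatocyte markers 4 fell (median −0.15, sum 21858 to 24323 in knockout, 23792 to 24444 in wild type). The 4 were Aurkc (−0.76, a larger fall than any of the 53), Plk1 (−0.44), Ccna1 (−0.37) and Spata16 (−0.32). The other 8 lay between −0.225 and 0.14, and 2 of them were positive. All 12 belonged to the brighter 9099 tested genes, of which 11.9% fell. Of 10 round spermatid markers 2 fell (median −0.16; sum 29187 to 29354 in knockout, 30251 to 32741 in wild type). Of 12 elongating spermatid markers 3 fell (median −0.08; sum 80280 to 81725 in knockout, 83111 to 88145 in wild type). The 3 were the dimmest of the list: Tekt4 (percentile 95.9, −0.30), Spem1 (96.9, −0.32) and Prm3 (97.5, −0.24). The rest, from Gapdhs (percentile 99.5) up to Prm1 (100), had log2 fold changes between −0.13 and −0.02. Whether signals this bright can show such falls was not tested. Whether the axoneme median of −0.25 differs from these was not tested. The lists also share genes besides Crem. Tnp1 is on both spermatid lists, Spag6 is a round spermatid marker and a central pair gene, and Mybl1 is a pachytene marker and a regulator. Of 8 spermatogonial markers 1 rose, with overlapping sums of 2325 to 2631 in knockout and 2492 to 2665 in wild type. Epithelia of the efferent ducts and rete testis also carry motile cilia. Of 11 of their markers 1 rose and 1 fell, 4 were brighter than the median tested gene, and the sums overlapped (798 to 996 in knockout, 902 to 1065 in wild type). Knockout 2 stood apart on this list, with a median deviation of 0.42 from the gene means, against −0.14 and −0.10 in the other knockout arrays and −0.07 to 0.01 in wild type. The epithelial keratin gene Krt18 had 3.58, 6.21 and 3.74 in knockout, against 3.74, 3.55, 4.29 and 3.34 in wild type. Krt19 (5.79), Cdh1 (4.13), Krt8, Pax8 and Aqp1 were likewise highest in knockout 2. Other genes of the list went the other way. Muc1 had its lowest signal in knockout 2 (6.49), and Esr1 (7.14) and Tppp3 (6.62) were lowest there among the knockout arrays. Without knockout 2, 24 axoneme genes fell, against 6.65% of all genes, and the median of the 53 was −0.28.

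**Figure D4:**
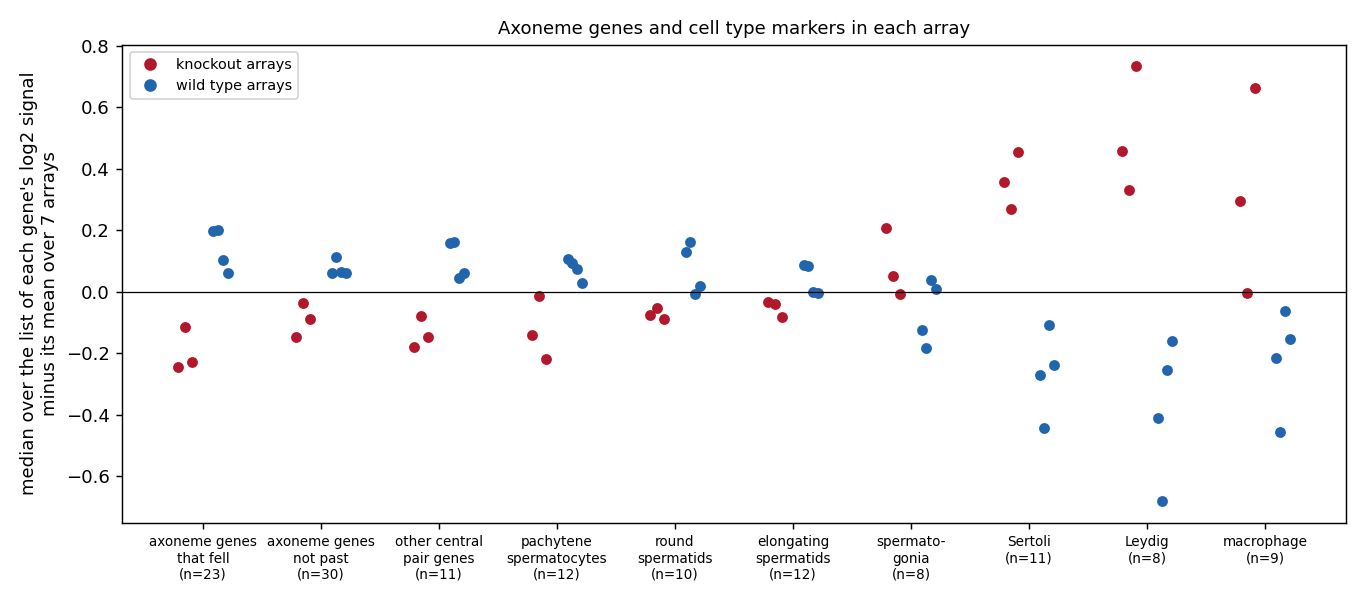
For each list, the median over its genes of the log2 signal minus the gene's mean over 7 arrays, with knockout arrays left and wild type arrays right. Both axoneme lists, other central pair genes and pachytene spermatocyte markers lie below 0 in all knockout arrays and above 0 in all wild type arrays. For the genes that fell this order was fixed in advance, because none of them overlaps between groups. All tested genes, not drawn, had the same signs (−0.016 to −0.0057 in knockout, 0.0086 to 0.011 in wild type). Sertoli and Leydig markers lie above 0 in all knockout arrays and below 0 in all wild type arrays.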

How the data were processed

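Biotin-labelled cRNA from 2 ug of total testis RNA was hybridised to Affymetrix arrays, per the labels' protocols. The authors deposited log2 signals for 45101 probe sets. The submitters' processing notes name Affymetrix Expression Console 1.4.1; background correction, summarisation and normalization are not given. The log2 scale was inferred from a range of 1.59 to 13.92. Precision is limited by the number of arrays, which have no depth, and detection calls were not used.

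Probe sets were named from the platform annotation: 34958 had 1 symbol, 932 had several and were left out, 3 of which name a gene of these families. The brightest probe set (mean over 7 arrays) stood for a gene. All 53 members kept their symbol in RefSeq (GRCm38.p6). Knockout minus wild type was tested with limma 3.58.1 in R 4.3.3 (lmFit, eBayes, two-sided) with Benjamini-Hochberg adjustment over 18194 genes and a threshold of 0.05, and the limma step was tested on simulated data. Genes past it are said to have risen or fallen.

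The members, lists, parts and naming rule (every member past the threshold, the 3 of smallest p in each part, the brightest, the dimmest and paralogues; the others are named after their values were seen) were chosen with earlier results of these data known. Titles open with an unexplained number, and its first 4 digits split the arrays into possible batches, which were knockout 1 and wild type 1, then knockout 2, wild type 2 and wild type 3, then knockout 3 and wild type 4. Across genotypes, deviations from group means had correlations of 0.103 to 0.319 inside a batch and up to 0.0227 between batches. At most 9.82% of probe sets had equal values in any array pair.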

Additional observations from a re-analysis of the deposited data

Results flagged for a closer look

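Among 52 sets of 4 wild type values tested for a sample far from the others, 3 had one, where chance gives about 1 in 20. All 3 were in wild type 4. It was the lowest wild type array for Dnaaf1 (11.91, against 12.04 to 12.06 in the other wild type arrays) and for Dnaic1 (8.52, against 8.69 to 8.72), and the highest for Dnaaf6 (7.07, against 6.79 to 6.81).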

How the results depend on the processing

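The median log2 fold change of the 53 genes stayed negative in every setting run, from −0.28 to −0.21 except within the first title-number group (−0.31), and leaving out 1 array gave −0.2825 to −0.2175. The number that fell was 23. Blocking on title-number groups gave 17 (15 of the 23 plus Dnaaf6 and Dnah7a, without Dnah6, Dnah1, Dnali1, Drc1, Rsph14, Cfap206, Cfap69 and Cfap157; 5.03% of all genes fell there). It was 24 to 28 with median centring, quantile normalization, trend and robust settings, array weights, all probe sets averaged, or a filter that kept 49 of the 53. In those settings 6.75% to 13.5% of the genes tested fell. It was 34 of 47 with genes below the median signal left out, where 19.1% of the genes tested fell. It was 13 with the replicate block, where 3.63% of all genes fell. Leaving out 1 array gave 0 to 24, and 175 to 2574 genes in all, against 2934. Leaving out knockout 3 and wild type 4 together, an alternative chosen after seeing the data, gave 0 axoneme genes and 4 genes in all. Of the 53, 33 had an unadjusted limma p under 0.05 there, and all genes were not counted at that p. Runs with arrays left out have fewer samples. Rsph3a was counted as risen in 3 settings, so that 1 gene rose with genes below the median left out, with all probe sets averaged and with the replicate block. Replicate numbers do not pair the arrays: deviations of same-numbered arrays correlated at 0.182, 0.103 and −0.143.

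Signs turned for 3 genes near 0 that did not pass. Cfap47 was 0.019 with quantile normalization, 0.0053 with array weights and 0.0040 with the title-number block, and lay between −0.067 and 0.0625 as single arrays were dropped. Dnah17 was −0.021 with median centring and lay between −0.01 and 0.025 as single arrays were dropped. Dnah8 was −0.016 with the title-number block and −0.035 without knockout 3 and wild type 4, and lay between −0.14 and 0.318 as single arrays were dropped. The cause was not tested. Signal over background was not used here, which limits what Cfap47, Rsph4a, Dnah17, Dnah5, Dnah11 and Cfap20dc can show. Counts over the other gene and marker lists were not refitted with arrays left out.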

Other observations

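The 53 genes are spread over 18 chromosomes. All 4 on chromosome 4, where Phf13 lies, fell (Dnali1, Cfap57, Dnaic1 and Cfap206), a grouping chosen after the values were seen. The nearest, Dnali1, starts 26.9 Mb from Phf13, and the farthest, Cfap206, 117 Mb.

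For 26 of the 53 genes more than 1 probe set was on the array. The 36 probe sets not used above gave 30 negative fold changes, 9 of them past the threshold and none past it in the positive direction (limma over all single-symbol probe sets). Of the 11 genes with several probe sets that fell, 6 had another probe set past the threshold: Cfap43, Cfap52, Cfap69, Dnah1, Dnaic1 and Dnali1. Cfap57, Cfap61, Dnaaf4, Dnaic2 and Drc3 had no other probe set past it. Of 22 unused probe sets above the highest array median, 19 were negative. Probe sets of a gene share its RNA and are not replicates. Dnal1 had 1 probe set at −0.30 and another of like signal at 0.01.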
